A study of Homo sapiens with 6 samples.

Results

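The CMTM family (CKLF-like MARVEL transmembrane domain containing) is a small group of membrane proteins, and 6 of its members were chosen by gene name, CMTM1, CMTM3, CMTM4, CMTM6, CMTM7 and CMTM8, out of 58825 genes in the data. All 6 names matched 1 gene each, and all 6 passed the filter on low counts that left 20295 genes for testing. CMTM1, at 4 to 30 counts per library, was the least expressed of the 6.

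The data are mRNA sequencing of NCI-H460, a human cell line derived from a large cell lung carcinoma, which the labels call a lung adenocarcinoma line. Control cells, named NC-shRNA here, were infected with lentivirus carrying a short hairpin RNA that the labels describe as directed at GFP. PRMT5-shRNA cells were infected with lentivirus for a hairpin against PRMT5, an enzyme that methylates arginines in proteins. According to the study, both were stably transformed lines, with the PRMT5 knockdown cells kept after puromycin selection, and the libraries of a group are biological replicates. Each group has 3 libraries. Which of its designed PRMT5 hairpins these libraries carry is not given in the sources used here. Whether the replicates differ in infection or day of culture is not given either. The p-values therefore set the group difference against the variation between these libraries, not between new infections. Estimated counts summed to 69606034, 70518401 and 62125927 for NC-shRNA replicates 1 to 3 and to 53531257, 69077084 and 56507279 for PRMT5-shRNA replicates 1 to 3.

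CMTM proteins cross the membrane several times through a MARVEL domain, a fold shared with proteins of vesicle traffic and tight junctions. CMTM6 binds PD-L1, the checkpoint ligand encoded by CD274, at the cell surface and in recycling endosomes and keeps it from being degraded in lysosomes, and CMTM4 can take over that role. CMTM3, CMTM7 and CMTM8 are known for their part in the uptake of the EGF receptor from the surface, for CMTM3 and CMTM7 through the early endosome GTPase RAB5. The family is named after CKLF, a secreted chemokine-like factor encoded next to CMTM1.

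The knockdown was visible in every library. PRMT5 was at 35.74, 32.52 and 33.46 FPKM (fragments scaled by transcript length and by mapped fragments) in NC-shRNA cells and at 12.19, 12.04 and 10.23 FPKM after knockdown. Its log2 fold change between PRMT5-shRNA and NC-shRNA cells was -1.62 (edgeR quasi-likelihood test, adjusted p = 0.0063), and the groups did not overlap.

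The same members stood at the top and at the bottom of the family in both groups. CMTM6 and CMTM4 were the most abundant members on the FPKM scale, and CMTM1 was the least abundant. In NC-shRNA cells the mean FPKM was 9.41 for CMTM6, 9.03 for CMTM4, 1.78 for CMTM8, 1.53 for CMTM3, 1.23 for CMTM7 and 0.193 for CMTM1. The ranges of neighbours in this order overlapped for CMTM6 and CMTM4, for CMTM8 and CMTM3 and for CMTM3 and CMTM7. Within each NC-shRNA library CMTM8 was above CMTM3, while the order of the other pairs changed between libraries. In PRMT5-shRNA cells CMTM3, at 2.64, stood above CMTM8, at 1.91. Their ranges were separated only narrowly, by 2.42 FPKM as the lowest of CMTM3 and 2.39 as the highest of CMTM8. The ranges of CMTM4 and CMTM6 again overlapped. Of the 20295 genes tested, 80.9% had a lower mean FPKM over all libraries than CMTM6, 80.6% than CMTM4, 51.2% than CMTM3 and 12.3% than CMTM1.

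**Figure D1:**
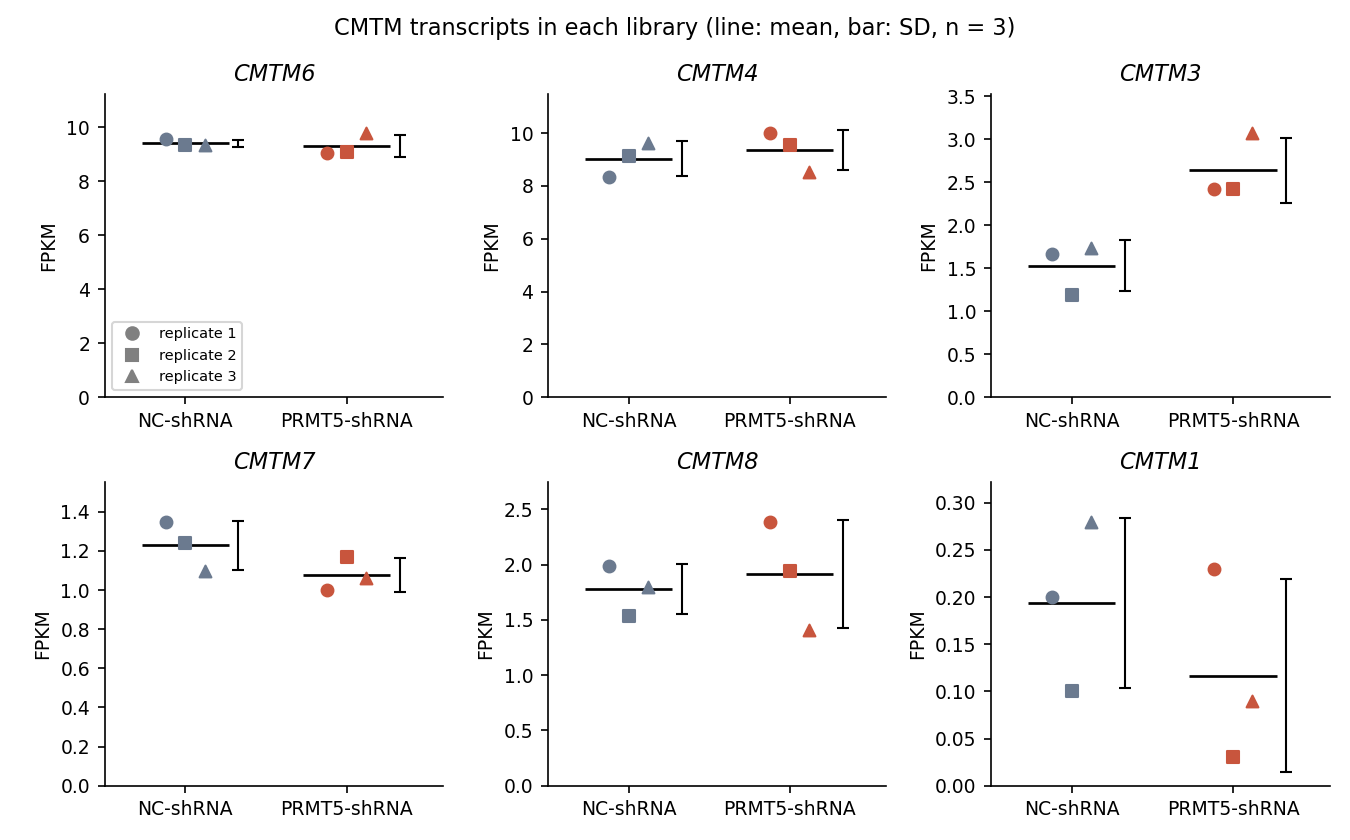
FPKM of the 6 CMTM members in each NC-shRNA and PRMT5-shRNA library, with the group mean (line) and SD (bar, n = 3). Each panel has its own axis from 0. The libraries of the groups overlap for every member but CMTM3, whose PRMT5-shRNA libraries sit at 2.42 to 3.07 and whose NC-shRNA libraries sit at 1.19 to 1.73.

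No member passed an adjusted p of 0.05 in edgeR, a rule that called 0.0690% of all genes tested, 14 of 20295. At an unadjusted p under 0.05, 1 of the 6 members passed, against 12.8% of all genes. The libraries of the groups did not overlap, on the CPM scale (counts as parts of a TMM-scaled library total), for 1 of the 6, which was higher in PRMT5-shRNA cells, against 11.0% of all genes higher and 10.7% lower in this way. The median log2 fold change of the 6 was -0.04, against 0.01 over all genes tested. In bulk RNA, fewer cells expressing a gene and less of its RNA per cell cannot be told apart.

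CMTM6 (ENSG00000091317), the stabilizer of PD-L1, lies on the minus strand of GRCh38 chromosome 3 from 32481312 to 32503408 in GENCODE release 29. It was at 9.55, 9.34 and 9.33 FPKM in NC-shRNA cells and at 9.06, 9.07 and 9.78 in PRMT5-shRNA cells. The highest and the lowest value were both in PRMT5-shRNA libraries, so the groups overlapped. EdgeR gave a log2 fold change of -0.08 with a standard error of 0.0690 (adjusted p = 0.686) and a 95% confidence interval from -0.24 to 0.09. An interval of this width leaves room for a small difference in either direction. The log2 fold change was -0.05 without NC-shRNA replicate 1, -0.03 with library size alone and -0.02 with limma on log2(FPKM + 1). The 3 FPKM values of NC-shRNA cells varied by a coefficient of variation of 1.32%, the smallest of any member in either group.

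CMTM4 (ENSG00000183723), which can stand in for CMTM6 at PD-L1 and also binds the junction protein VE-cadherin, lies on the minus strand of chromosome 16 from 66614750 to 66696707. It was at 8.33, 9.14 and 9.63 FPKM in NC-shRNA cells and at 10.0, 9.54 and 8.54 in PRMT5-shRNA cells. The spread within each group was wider than the distance between the group means. By edgeR the log2 fold change was -0.01 with a standard error of 0.0811 (adjusted p = 0.978) and a 95% confidence interval from -0.20 to 0.18, and its sign changed under 7 of 18 alternatives, among them scaling by library size alone (0.04) and fits without NC-shRNA replicate 3 (0.02) or PRMT5-shRNA replicate 3 (0.06). Together CMTM6 and CMTM4 made up 79.6% ± 2.26 (SD, n = 3) of the summed FPKM of the 6 members in NC-shRNA cells and 76.5% ± 0.530 in PRMT5-shRNA cells. The share depends on all 6 members. The summed FPKM of the 6 was 23.2 ± 0.664 with the NC-shRNA and 24.4 ± 0.610 with the PRMT5-shRNA, and the group means were 9.41 and 9.30 for CMTM6, 9.03 and 9.36 for CMTM4, and 1.53 and 2.64 for CMTM3. In FPKM, the mean of CMTM6 was thus slightly lower and that of CMTM4 slightly higher with the PRMT5-shRNA. In CPM the means with the NC-shRNA and the PRMT5-shRNA were 43.3 and 41.1 for CMTM6 and 87.5 and 87.0 for CMTM4. The share was taken in FPKM only.

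**Figure D2:**
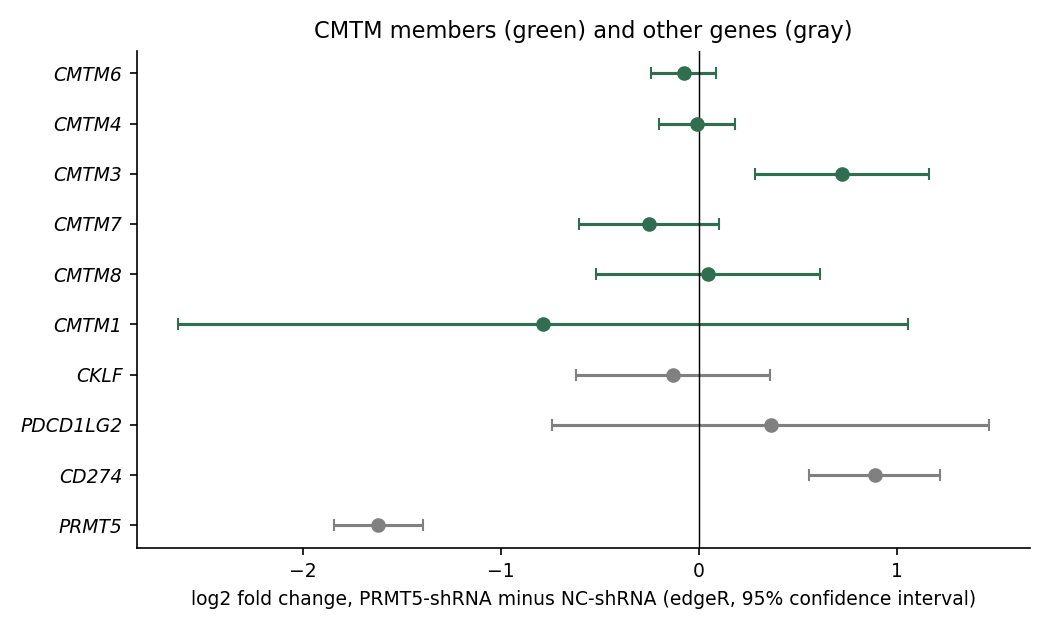
Log2 fold change between PRMT5-shRNA and NC-shRNA cells (x axis) with its 95% confidence interval for the 6 CMTM members, CKLF, CD274, PDCD1LG2 and PRMT5, from edgeR with n = 3 libraries per group. The intervals of CMTM6 (-0.24 to 0.09) and CMTM4 (-0.20 to 0.18) hold 0, and the interval of CMTM1 is the widest (-2.63 to 1.06).

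CD274, which encodes the client of CMTM6 and CMTM4, was at 0.56, 0.61 and 0.56 FPKM in NC-shRNA cells and at 1.23, 1.04 and 1.10 in PRMT5-shRNA cells. These are low levels, on 170 to 345 counts, and every PRMT5-shRNA library lay above every NC-shRNA library (log2 fold change 0.89, edgeR adjusted p = 0.121). CD274 was thus not called by edgeR, while DESeq2 gave 0.88 and called it (adjusted p = 0.000319, with a range of 0.000319 to 0.366 over the alternatives). With limma the log2 fold change was 0.43 on log2(FPKM + 1) and 0.85 on log2(FPKM + 0.1). A pseudocount of 1 is near the FPKM of CD274 itself and makes its log2 fold change smaller. Within a library, the FPKM of CMTM6 was 17.1, 15.3 and 16.7 times that of CD274 in NC-shRNA cells and 7.37, 8.72 and 8.89 times in PRMT5-shRNA cells. The ratio was thus lower in each PRMT5-shRNA library, with a mean of 16.3 ± 0.914 (SD, n = 3) against 8.33 ± 0.836. On the log2 scale the difference was -0.98, and the exact permutation test gave p = 0.10 (two-sided), the smallest that 3 libraries against 3 can give. The same ratio for CMTM4, computed after the values were seen, was 14.9, 15.0 and 17.2 in NC-shRNA cells and 8.13, 9.17 and 7.76 in PRMT5-shRNA cells, a log2 difference of -0.91. Both ratios carry the CD274 values as their denominator, so they are not independent of one another or of the CD274 comparison.

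**Figure D3:**
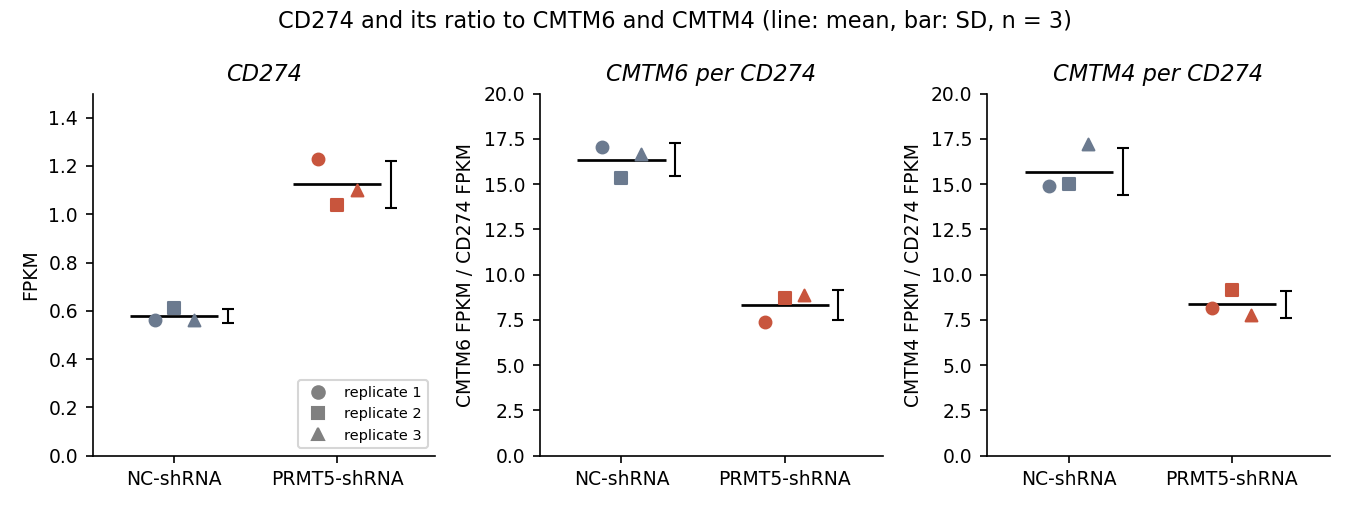
CD274 in FPKM (left) and the FPKM of CMTM6 (middle) and CMTM4 (right) divided by that of CD274 in each library, with the group mean (line) and SD (bar, n = 3). All axes start at 0. CD274 is higher and both ratios are lower in every PRMT5-shRNA library than in any NC-shRNA library.

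A list of 8 genes joined PD-L1 and PD-L2 with proteins known to bind them or a CMTM protein, and 6 of the 8 were tested. By edgeR, 0 of the 6 were called, against 0.0690% of all genes, and 2, CD274 and CDH5, had an unadjusted p under 0.05, against 12.8% of all genes. CDH5, which encodes VE-cadherin, was at 1.31, 1.48 and 1.35 FPKM in NC-shRNA cells and at 1.68, 1.63 and 2.02 in PRMT5-shRNA cells (log2 fold change 0.30, edgeR adjusted p = 0.376). CD58, the T cell adhesion ligand that CMTM6 also stabilizes, was at 5.30, 6.10 and 5.76 FPKM against 4.96, 6.09 and 6.58 (log2 fold change -0.02, edgeR adjusted p = 0.967). PDCD1LG2, which encodes PD-L2, lay at 0.22 to 0.47 FPKM in NC-shRNA cells and at 0.22 to 0.68 in PRMT5-shRNA cells. CAMLG, a factor for membrane insertion in the endoplasmic reticulum, lay at 14.22 to 15.85 and 15.56 to 18.48 FPKM, so the groups overlapped for CD58, PDCD1LG2 and CAMLG. The median log2 fold change of the 6 tested genes was 0.21, against 0.01 over all genes tested.

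CMTM3 (ENSG00000140931) was the 1 member whose groups did not overlap. It lies on the plus strand of chromosome 16 from 66603874 to 66613892, end to end with CMTM4 without overlapping it. CMTM3 was at 1.67, 1.19 and 1.73 FPKM in NC-shRNA cells, on 430, 309 and 393 counts, and at 2.42, 2.42 and 3.07 in PRMT5-shRNA cells, on 474, 612 and 628 counts. Its lowest value was in NC-shRNA replicate 2 and its highest in PRMT5-shRNA replicate 3. The log2 fold change was 0.72 (standard error 0.185, 95% confidence interval 0.28 to 1.16) with an edgeR unadjusted p = 0.0060 and an adjusted p = 0.233, so CMTM3 was not called. Permuting the CPM values exactly gave p = 0.10, the smallest possible. DESeq2 called CMTM3 with a log2 fold change of 0.72 (adjusted p = 0.0274), a rule under which 1.81% of 16723 genes were called higher, and over all alternatives its adjusted p ran from 0.0274 to 0.487. The share of CMTM3 in the summed FPKM of the 6 members was 6.59% ± 1.13 (SD, n = 3) in NC-shRNA cells and 10.8% ± 1.74 in PRMT5-shRNA cells.

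CMTM7 (ENSG00000153551), which in B cells also links the antigen receptor to its adaptor BLNK, was at 1.35, 1.24 and 1.10 FPKM in NC-shRNA cells and at 1.0, 1.17 and 1.06 in PRMT5-shRNA cells. The groups overlapped through 1 PRMT5-shRNA library, replicate 2, and edgeR gave a log2 fold change of -0.25 with a standard error of 0.150 (adjusted p = 0.527). The log2 fold change of CMTM7 was -0.16 without NC-shRNA replicate 1. With limma it was -0.10 on log2(FPKM + 1) and -0.17 on log2(FPKM + 0.1). CMTM8 (ENSG00000170293) was at 1.99, 1.54 and 1.80 FPKM against 2.39, 1.94 and 1.41. Its highest and lowest values were both in PRMT5-shRNA libraries. The log2 fold change of CMTM8 was 0.05 (standard error 0.239, edgeR adjusted p = 0.958), and it changed sign without NC-shRNA replicate 2 (-0.05) or PRMT5-shRNA replicate 1 (-0.14).

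CMTM8, CMTM7 and CMTM6 lie side by side on chromosome 3, with CMTM8 from 32238679 to 32370325 and CMTM7 from 32391671 to 32483067 on the plus strand. The 3′ ends of CMTM7 and CMTM6 overlap on opposite strands by 1756 bases. The library kit keeps strand, but whether the counting used it is not given in the sources used here, so reads from that stretch may have been given to either gene. CKLF, CMTM1, CMTM2, CMTM3 and CMTM4 form the other cluster, on chromosome 16. Both clusters are flanked by a gene for a light intermediate chain of the motor protein dynein, DYNC1LI1 beside CMTM6 and DYNC1LI2 beside CMTM4.

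The nearest protein-coding genes on either side were measured as a description of each cluster. DYNC1LI1 had 41.3 ± 1.04 CPM (SD, n = 3) in the control and 38.3 ± 3.24 in the knockdown group, and DYNC1LI2 had 158 ± 12.2 and 175 ± 0.503 CPM. The log2 fold changes were -0.11 (edgeR adjusted p = 0.633) and 0.15 (edgeR adjusted p = 0.420), and the groups overlapped for DYNC1LI1 but not for DYNC1LI2. TK2, the mitochondrial thymidine kinase gene before CKLF, had 15.8, 15.3 and 18.8 CPM in the control and 21.6, 20.1 and 19.4 in the knockdown libraries (log2 fold change 0.29, edgeR adjusted p = 0.353). Beyond DYNC1LI1 and before CMTM8, CNOT10, OSBPL10 and GPD1L had log2 fold changes of -0.02, 0.02 and 0.26, with edgeR adjusted p-values of 0.96, 0.922 and 0.843. GPD1L stood at 11.9 CPM in NC-shRNA replicate 1 and at 37.9 to 44.4 in the other 5 libraries. The remaining neighbours, AC010542.3 and TERB1, had at most 14 counts in any library and were not tested. On the CPM scale the groups did not overlap for 2 of the 6 tested neighbours, DYNC1LI2 and TK2, both higher, against 11.0% of all genes. EdgeR called 0 of the 6 at an adjusted p of 0.05, against 0.0690% of all genes, and 1, TK2, had an unadjusted p under 0.05, against 12.8%.

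CMTM1 (ENSG00000089505) lies on the plus strand of chromosome 16 from 66566393 to 66579137. A read-through gene that joins it to CKLF, annotated as CKLF-CMTM1 from 66552587 to 66579135, covers it on the same strand, so counts of the 3 genes may have been divided between them. CMTM1 had 26, 13 and 30 counts in NC-shRNA cells and 22, 4 and 9 in PRMT5-shRNA cells, at most 0.28 FPKM. These counts are low, and the groups overlapped. The log2 fold change of -0.79 had a 95% confidence interval from -2.63 to 1.06 (edgeR adjusted p = 0.717), and with the counts of the 3 genes summed it was -0.14. For CMTM1 alone it was -1.72 without PRMT5-shRNA replicate 1, -0.33 without PRMT5-shRNA replicate 2 and -0.49 without NC-shRNA replicate 3.

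CKLF, not itself among the 6 members, was at 25.18, 23.98 and 37.38 FPKM in NC-shRNA cells and at 24.18, 23.56 and 34.47 in PRMT5-shRNA cells, above every CMTM member in each library. Replicate 3 was the highest library of each group. CKLF-CMTM1 had 79, 174 and 0 counts in NC-shRNA cells and 87, 111 and 0 in PRMT5-shRNA cells, so it was at 0 in the same libraries where CKLF was highest. A count of 0 there allows up to 0.0483 CPM for NC-shRNA and 0.0522 CPM for PRMT5-shRNA replicate 3, against 1.18 to 2.51 CPM in the other 4 libraries, for counting error only. Summed over CKLF, CKLF-CMTM1 and CMTM1, replicate 3 was still the highest, at 51.2 CPM against 37.3 and 35.9 in NC-shRNA cells and at 45.7 against 34.2 and 33.2 in PRMT5-shRNA cells. The log2 fold change of CKLF was -0.13 (standard error 0.207, edgeR adjusted p = 0.829), and it was 0.08 without NC-shRNA replicate 3 and -0.32 without PRMT5-shRNA replicate 3. CMTM2, the neighbour of CMTM1, had 0 to 9 counts and was not tested, and CMTM5, on chromosome 14, had 0 counts in all 6 libraries, which allows at most 0.0550 CPM in the shallowest of them.

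**Figure D4:**
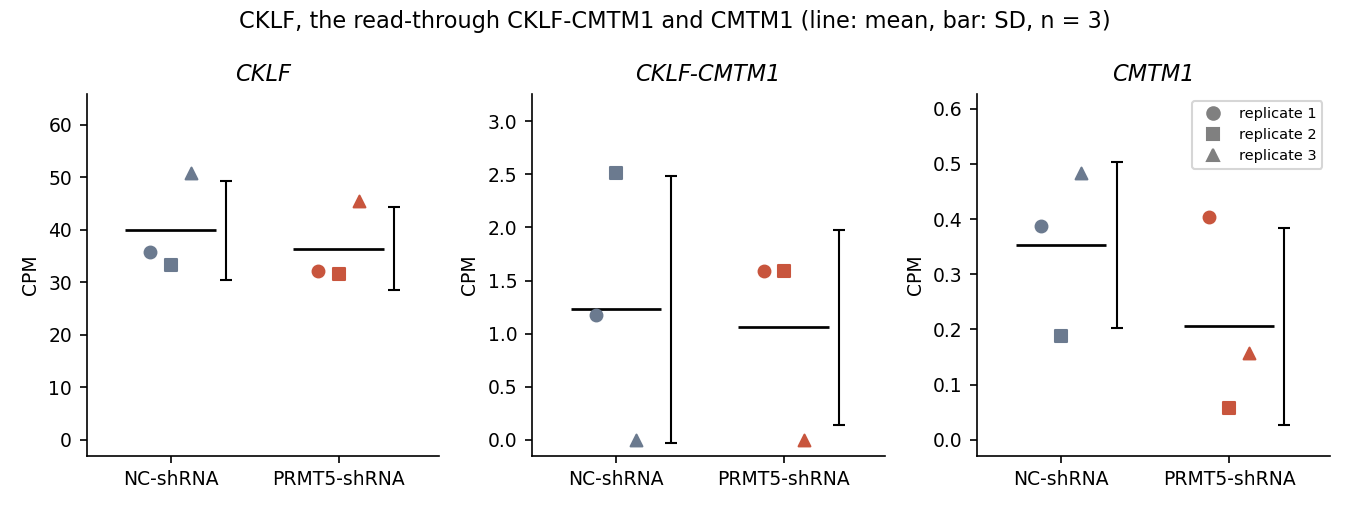
CPM of CKLF, of the read-through gene CKLF-CMTM1 and of CMTM1 in each library, with the group mean (line) and SD (bar, n = 3). Each panel has its own linear axis. In both groups replicate 3 (triangle) is the highest library for CKLF and is at 0 for CKLF-CMTM1.

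Sequence around the transcription starts was compared among the members because their levels differ widely in the same cells. For each start listed by RefSeq (GRCh38.p14), the window from 250 bases before to 50 bases after the start was searched on both strands for the GC box GGGCGG, the motif bound by SP1-type factors, which 45.0% of 35116 windows hold. All 6 members had at least 1 window in the RefSeq table. The windows of CMTM4, CMTM6, CMTM7 and CMTM8 held 4, 5, 5 and 6 GC boxes, 2 overlapping CMTM3 windows of its 3 held 5 each and the other held 0, and the window of CMTM1 held 0. The E-box CACGTG (7.26% of windows), the cAMP response element TGACGTCA (1.85%), the inverted CCAAT box ATTGG (34.6%) and the interferon gamma activated site TTCNNNGAA (7.66%) were in no window of the 6. A match is a description of the letters, and no match says only that these letters are not in the window. The stretch of 30 bases with the most GC boxes outside annotated exons is shown for CMTM4, the member on the most counts, for CMTM3, whose groups did not overlap, and for CMTM8, with GC boxes of either strand in capitals. The CMTM4 and CMTM8 stretches lie before the annotated gene, and the CMTM3 stretch lies in an intron of its longest annotated form. They are read 5′ to 3′ on the strand of the gene, minus for CMTM4 at chr16:66696922-66696951, plus for CMTM3 at chr16:66604634-66604663 and plus for CMTM8 at chr3:32238635-32238664.
CMTM4: taggcgcaggtggGGGCGGggccaGGGCGG
CMTM3: gGGGCGGgctggaggagcgggtggGGGCGG
CMTM8: cccgcctcCCGCCCGCCCctctccCCGCCC

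The machinery that CMTM proteins act in was read from 5 lists with 91 genes in all, of which 86 were tested. EdgeR called 0 of the 86 at an adjusted p of 0.05, against 0.0690% of all genes, and 11 had an unadjusted p under 0.05, against 12.8% of all genes. DESeq2 called 2, CD274 and MAL2, against 3.17% of the 16723 genes to which it gave an adjusted p. None of these counts sets the lists apart from all genes. Among 24 genes of PD-L1 turnover and trafficking, all tested, 9 had a log2 fold change above 0 and 15 below, with a median of -0.06. RAB11A, the GTPase of recycling endosomes, was at 17.5, 17.2 and 16.2 FPKM in NC-shRNA cells and at 15.6, 15.1 and 15.7 in PRMT5-shRNA cells (log2 fold change -0.19, edgeR adjusted p = 0.303). RAB11A was lower in every PRMT5-shRNA library without being called. GSK3B, the kinase that marks PD-L1 for degradation, was at 10.5 to 11.8 FPKM against 12.8 to 13.5 (log2 fold change 0.14, edgeR adjusted p = 0.392), and the ubiquitin ligase gene MARCH8 was at 2.90 to 3.26 against 2.66 to 3.04 (log2 fold change -0.20, edgeR adjusted p = 0.453). On the CPM scale the groups did not overlap for 1 of the 24 upward and 3 downward, against 11.0% and 10.7% of all genes.

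Among 23 genes of endosomal recycling, the route on which CMTM6 meets PD-L1, 4 had a log2 fold change above 0 and 19 below. Their median was -0.11, against 0.01 over all genes tested, of which 51.2% lay above 0. EHD4, an ATPase of recycling membranes, was at 3.72, 3.69 and 3.82 FPKM in NC-shRNA cells and at 3.45, 3.31 and 3.15 in PRMT5-shRNA cells (log2 fold change -0.24, edgeR adjusted p = 0.286). The GTPase gene RAB8A was at 10.84, 11.36 and 10.96 FPKM against 10.43, 10.26 and 9.93 (log2 fold change -0.17, edgeR adjusted p = 0.316). TFRC, the transferrin receptor gene and the most abundant of the list, was at 101.9, 114.2 and 116.2 FPKM against 105.7, 63.0 and 102.1, with PRMT5-shRNA replicate 2 apart from the rest (log2 fold change -0.36, edgeR adjusted p = 0.456). On the CPM scale 5 of the 23 did not overlap, all lower, against 10.7% of all genes lower and 11.0% higher. Among these was RAB11A, which is also in the list of PD-L1 turnover and was counted there too. EdgeR called 0 of the 23.

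The 18 genes of the EGF receptor and the early endosome, where CMTM3, CMTM7 and CMTM8 act, had a median log2 fold change of 0.12, with 11 above 0 and 7 below. EGFR was at 18.3, 23.6 and 24.3 FPKM in NC-shRNA cells and at 25.3, 23.9 and 25.5 in PRMT5-shRNA cells (log2 fold change 0.11, edgeR adjusted p = 0.665). NC-shRNA replicate 1 was the lowest of the 6 libraries, and without it the log2 fold change of EGFR was 0.011. It was 0.18 with limma on log2(FPKM + 0.1). CBLB, a ubiquitin ligase for receptors, was at 2.75, 3.32 and 3.34 FPKM against 3.70, 3.93 and 3.97 (log2 fold change 0.24, edgeR adjusted p = 0.320). RAB5C, 1 of 3 RAB5 genes, was at 26.6, 26.5 and 24.8 FPKM against 52.97, 55.8 and 25.2, so replicate 3 of the PRMT5-shRNA cells lay with the control libraries (log2 fold change 0.72, edgeR adjusted p = 0.354). Without that replicate RAB5C was called by edgeR, at a log2 fold change of 1.01 (adjusted p = 0.0330, with a range of 0.0330 to 0.560 over the alternatives). RABEP1, which encodes an effector of RAB5, was at 15.6 to 16.6 FPKM against 13.5 to 15.7, and CLTC, the clathrin heavy chain gene, was at 39.6 to 47.7 against 38.3 to 40.2. Their log2 fold changes were -0.17 and -0.18, with edgeR adjusted p-values of 0.364 and 0.456. On the CPM scale 1 of the 18 did not overlap upward and 3 downward, against 11.0% and 10.7% of all genes.

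Other MARVEL domain genes share the fold of the CMTM proteins. Of 19, 16 were tested, 6 had a log2 fold change above 0 and 10 below, and 3 were listed at 0 in all libraries. MAL2, needed for transcytosis in polarized cells, was at 7.10, 7.32 and 7.69 FPKM in NC-shRNA cells and at 6.31, 6.06 and 5.94 in PRMT5-shRNA cells. Every PRMT5-shRNA library was lower, and the log2 fold change was -0.33 (edgeR adjusted p = 0.198), while DESeq2 gave -0.34 and called it (adjusted p = 0.0127, with a range of 0.0127 to 0.447 over the alternatives). PLP2, the most abundant of the list, was at 250.1, 241.0 and 237.1 FPKM against 235.0, 233.1 and 221.7 (log2 fold change -0.14, edgeR adjusted p = 0.393). MARVELD1 was at 27.1 to 31.8 FPKM against 25.2 to 27.7, and SYP, the synaptophysin gene, at 0.27 to 0.37 against 0.19 to 0.28. Their log2 fold changes were -0.20 and -0.51, with edgeR adjusted p-values of 0.327 and 0.443. The median of the 16 was -0.12.

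**Figure D5:**
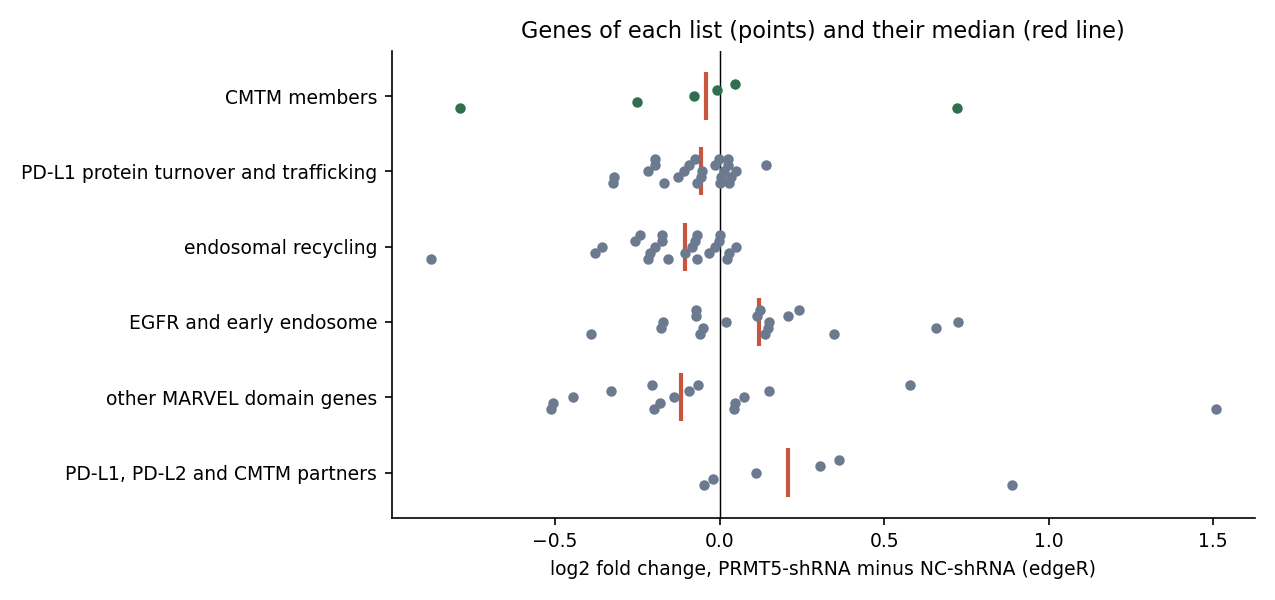
Log2 fold change between PRMT5-shRNA and NC-shRNA cells (x axis, edgeR) of each tested gene (points) of the CMTM members and of the 5 lists, with the list's median (red line). The medians run from -0.12 for other MARVEL domain genes to 0.21 for PD-L1, PD-L2 and CMTM partners, and no point shown passed an adjusted p of 0.05.

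The genes whose log2 CPM followed CMTM6 most closely over the 6 libraries were ZNF326, AL009174 and SPA17, with Pearson correlations of 0.993, 0.992 and 0.991 among 20294 genes compared. Those closest to CMTM4 were FOXD2, ZNF107 and COQ7, at 0.988, 0.987 and 0.987. With 6 libraries such values are common, and 183 genes were above 0.9 for CMTM6 and 158 for CMTM4. These are descriptions of the same 6 libraries, which also share their scaling.

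Cell type markers were read to check the label and to look for other cells. The keratin genes KRT18, KRT8, KRT7 and KRT19 were at 33.7 to 164 FPKM in all libraries, while EPCAM was at 0.32 to 0.52 and CDH1 at 0.10 to 0.30. Of these 6 epithelial genes 5 had a log2 fold change below 0, edgeR called 0, and on the CPM scale 2 did not overlap, KRT8 (-0.23, edgeR unadjusted p = 0.00826 and adjusted p = 0.251) and EPCAM (-0.34, edgeR adjusted p = 0.575), both lower, against 10.7% of all genes. Lineage markers of lung adenocarcinoma were near 0, with NKX2-1, NAPSA, SFTPB and SFTPC summing to between 0.02 and 0.23 FPKM, so the adenocarcinoma named in the labels was not marked by these genes. The leukocyte gene PTPRC was at most at 0.01 FPKM and CD3E was listed at 0. The 5 endothelial markers summed to 1.36, 1.48 and 1.36 FPKM in NC-shRNA cells and to 2.14, 1.92 and 2.41 in PRMT5-shRNA cells, mostly from CDH5, with TIE1 and EMCN at most at 0.03. On the CPM scale 3 of the 3 tested did not overlap, all higher, against 11.0% of all genes. EdgeR called 1, VWF, against 0.0690% of all genes. VWF was at 0 FPKM in all NC-shRNA libraries and at 0.20, 0.12 and 0.18 in PRMT5-shRNA libraries (edgeR adjusted p = 0.0341). With the replicate number as a block edgeR called 0 genes higher, so VWF was not called there. PECAM1 was at 0.05, 0 and 0.01 FPKM against 0.21, 0.16 and 0.21 (edgeR adjusted p = 0.188). The 5 fibroblast markers summed to 8.38 to 9.71 and 8.44 to 10.18 FPKM, mostly from DCN, with COL1A2 listed at 0. On the CPM scale 2 of the 4 tested did not overlap, both higher, against 11.0% of all genes, and neither was called. COL3A1 was at 0.89 to 1.09 FPKM against 1.61 to 1.99 (edgeR adjusted p = 0.110), and PDGFRB at 0.40 to 0.48 against 0.66 to 0.77 (edgeR adjusted p = 0.231). The other 2 overlapped. DCN, the most abundant, was at 7.32, 6.22 and 5.83 FPKM against 6.26, 5.05 and 5.80 (log2 fold change -0.24, edgeR adjusted p = 0.450), and COL1A1 was at 0.98 to 1.14 against 1.12 to 1.25 (log2 fold change 0.10, edgeR adjusted p = 0.761). The part of these genes in the CMTM3 and CDH5 values was not tested.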

How the data were processed

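According to the methods and the submitters' processing notes, the authors trimmed reads with cutadapt 1.9, mapped them with HISAT2 2.0.4 and estimated expression with StringTie 1.3.4d. The notes name GRCh38 as the genome. For each gene in each library the authors deposited an estimated count, not normalized. The deposited FPKM values are scaled for transcript length and depth. As all estimated counts were whole, rounding changed nothing. Between 1214 and 1319 genes per library had 4 counts, against 283 to 546 with 3 or 5, so a count is not read as 1 fragment, and floors of 3 counts cover counting error only. The choice of members and lists was made with earlier results of these data known.

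Counts were scaled by TMM and filtered with filterByExpr by group (edgeR 4.0.16 in R 4.3.3), then tested over all 20295 genes with the quasi-likelihood test and Benjamini-Hochberg adjustment, called at an adjusted p under 0.05. Standard errors came from the F statistic. Log2 CPM used a prior count of 2. Exact two-sided permutation tests of single values (scipy 1.17.1) cannot go below 0.10 for 3 libraries against 3. Levels of different genes were compared only in FPKM. Pairs of libraries within a group differed by far more than counting noise, so none was treated as a duplicate. Positions, overlaps and neighbours came from GENCODE release 29, which held 58552 of the 58825 gene identifiers, and start windows came from RefSeq (GRCh38.p14). The edgeR step was checked on simulated counts.

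The genes named are the 6 members, CKLF, CMTM2, CMTM5, PRMT5, CD274, PDCD1LG2, CD58 and EGFR, up to 4 genes of each other list with the smallest edgeR p, the 2 nearest protein-coding genes on each side of both clusters, and the 3 genes most correlated with CMTM6 and with CMTM4. The read-through gene CKLF-CMTM1, and markers named beyond 4, were added after values were seen. For 1 gene that this rule takes, the result is not reported here. Alternatives were RLE, upper quartile and library size scaling, no filter or a mean of at least 50 counts, DESeq2 1.42.0, a replicate block, counts divided by 4, on log2(FPKM + 1) limma 3.58.1 and a gene-wise linear model, both above a mean FPKM of 0.5, limma with a pseudocount of 0.1 or without the filter, and each library left out in turn.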

Additional observations from a re-analysis of the deposited data

How the results depend on the processing

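CMTM6, CMTM7 and CMTM1 kept their direction and stayed uncalled under every alternative run, and the CMTM6 log2 fold change ran from -0.11 to -0.02. CMTM7 ran from -0.34, without NC-shRNA replicate 3, to -0.10, with limma on log2(FPKM + 1). It was at -0.16 without NC-shRNA replicate 1 and at -0.17 with limma on log2(FPKM + 0.1). A pseudocount of 1 makes log2 fold changes smaller for genes near or below 1 FPKM. EGFR ran from 0.011, without NC-shRNA replicate 1, to 0.18. CMTM1 ran from -1.72 to -0.10, the latter with limma on log2(FPKM + 1) without the filter. It had no adjusted p from DESeq2. A minimum mean of 50 counts or of 0.5 FPKM, or division of counts by 4, removed CMTM1, so no value could be computed there. It was at -1.72 without PRMT5-shRNA replicate 1 and at -0.33 without PRMT5-shRNA replicate 2. CMTM3 stayed between 0.53 and 0.81 and passed only with DESeq2 (0.72, adjusted p = 0.0274, with a range of 0.0274 to 0.487 over the alternatives). The cause was not tested. CMTM4 changed sign with library size alone (0.041), with limma on log2(FPKM + 1) with and without the filter and the linear model per gene (0.046 each), and with limma on log2(FPKM + 0.1) (0.050). With each library left out it ran from -0.058 to 0.058, and was above 0 without NC-shRNA replicate 3 (0.023) or PRMT5-shRNA replicate 3 (0.058). CMTM8 ran from -0.14 to 0.22 with each library left out, and was below 0 without NC-shRNA replicate 2 (-0.05) or PRMT5-shRNA replicate 1 (-0.14). CKLF ran from -0.32 to 0.078 with each library left out, and was above 0 only without NC-shRNA replicate 3. The log2 difference of the CMTM6 to CD274 ratio ran from -1.03 to -0.89, and that of the CMTM4 ratio, an addition after seeing the data, from -0.98 to -0.84.

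Over all genes edgeR called 10 higher and 4 lower. DESeq2 called 303 and 227, the linear model per gene 0 and 2 (2165 at an unadjusted p under 0.05), and limma on log2(FPKM + 1) without the filter 1 higher. With each library left out the counts ran from 4 to 16 higher and from 3 to 10 lower, with 5 higher without NC-shRNA replicate 2, 16 higher and 9 lower without NC-shRNA replicate 3, and 4, 5 and 6 higher without PRMT5-shRNA replicates 1, 2 and 3. There were 10 lower genes without PRMT5-shRNA replicate 2. Of the 86 list genes tested, edgeR called 0, DESeq2 2, and the fits with each library left out 0 to 1, which was RAB5C without PRMT5-shRNA replicate 3 (1.01). These list counts and the other genes' alternatives were chosen after seeing the data.

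With the replicate number as a block (replicate block), edgeR called 0 genes higher and 0 lower, with 2382 at an unadjusted p under 0.05. Deviations of libraries with the same number correlated by 0.035, -0.010 and -0.015, against -0.027 to 0.037 for libraries with different numbers. Over all genes the numbers thus showed no pairing. Single genes did follow them, with CKLF-CMTM1 at 0 in replicate 3 and CBL lowest in replicate 1 of both groups. Whether libraries with the same number shared a batch was not tested. PRMT5 was no longer called under the block (-1.62, adjusted p = 0.144) or with the linear model per gene (-1.49, adjusted p = 0.0913), with a range of 3.18e-42 to 0.144 over the alternatives.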

Other observations

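Some genes near the CMTM proteins in function stood at separate levels within a group, and were singled out after their values were seen. RAB5B, like RAB5C a GTPase of early endosomes, was at 2.18, 2.93 and 16.8 FPKM in NC-shRNA cells and at 16.8, 2.74 and 16.1 in PRMT5-shRNA cells. CBL, a ubiquitin ligase that acts on the EGF receptor, was at 1.70, 10.3 and 9.93 FPKM in NC-shRNA cells and at 3.14, 11.1 and 11.9 in PRMT5-shRNA cells. High and low libraries were found in both groups for each gene. NC-shRNA replicate 1 was low for both genes, as it was for GPD1L. For CBL the low libraries were replicate 1 of both groups. For RAB5B they were NC-shRNA replicates 1 and 2 and PRMT5-shRNA replicate 2. Of 12413 tested genes with a mean of at least 1 FPKM, 522 (4.21%) differed over 3-fold between libraries of the same group. None of the CMTM members above 1 FPKM was among them, the widest being CMTM8, with a ratio of highest to lowest PRMT5-shRNA library of 1.70.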
